A study of Homo sapiens with 9 samples.

Results

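Integrins and laminins are the receptors and the ligands of cell adhesion to basement membrane, and 38 genes of both families were found by symbol among the 23610 rows of the expression table. They comprised 18 integrin alpha genes (ITGA), 8 integrin beta genes (ITGB1 to ITGB8) and 12 laminin chain genes, of which 5 were alpha, 4 beta and 3 gamma chains. Their transcripts were measured by polyA RNA sequencing in 9 libraries of GIST-T1, an established line of gastrointestinal stromal tumour (GIST), a mesenchymal tumour of the gut wall. The sgRNA targeted ETV1 in 3 libraries, HAND1 in 3 others and Luciferase, the control, in the last 3. Both targets are transcription factors: ETV1, of the ETS family, marks interstitial cells of Cajal and GIST, and HAND1, of the basic helix-loop-helix class, acts in the developing mesoderm. The labels call the manipulation a knockdown and give no effector protein, sgRNA sequence or time of harvest. Whether the replicates were grown as separate cultures is not stated either, and p-values therefore reflect only library-to-library spread, which may be technical. All groups shared a single cell line, and fewer cells of a kind cannot be told apart from less RNA per cell.

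An integrin is a dimer of an alpha and a beta subunit, and the alpha subunit largely sets the ligand. Those of ITGA1, ITGA2, ITGA10 and ITGA11 bind collagens, those of ITGA3, ITGA6 and ITGA7 bind laminins, and those of ITGA5, ITGA8, ITGAV and ITGA2B bind ligands with the RGD tripeptide such as fibronectin and vitronectin. ITGA4 and ITGA9 encode a pair of related subunits whose ligands include fibronectin and VCAM1 (ITGA4) and tenascin C (ITGA9), and the remaining alpha genes, ITGAD, ITGAE, ITGAL, ITGAM and ITGAX, belong to leukocyte integrins. Most of these alpha subunits pair with ITGB1. A laminin is a trimer of an alpha, a beta and a gamma chain, secreted into basement membranes. Interstitial cells of Cajal, which GIST resembles, lie in the gut muscle in contact with smooth muscle cells, nerves and matrix.

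The authors deposited FPKM, a fragment density normalised for transcript length and library size, so levels of different genes may be set side by side. The depth of the libraries, known only relative to Luciferase sgRNA replicate 1, was between 0.636 and 1. ETV1 was at 10.9 to 12.0 FPKM with its own sgRNA against 37.4 to 42.2 FPKM in the control, and HAND1 at 36.5 to 40.8 FPKM with its own against 114 to 116 FPKM. With the sgRNA against ETV1, HAND1 was at 130 to 134 FPKM, above the control range. With the sgRNA against HAND1, ETV1 was at 39.8 to 41.8 FPKM, within the control range. All 5 markers of GIST and interstitial cells of Cajal examined had a mean of at least 1 FPKM, CD34 with 1659 FPKM the highest, while all 8 leukocyte, all 5 platelet, all 6 endothelial and all 6 skeletal muscle markers had a mean below 1 FPKM. So had 7 of 9 epithelial markers, with KRT18 at a mean of 225 FPKM and KRT8 at 3.27 FPKM the exceptions, and 6 of 7 neuronal and glial markers, with TUBB3 at 58.5 FPKM the exception. Luciferase sgRNA replicate 3 stood apart in sum of FPKM (538689 against 453458 and 463503 in the other control libraries).

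Of the 38 genes, 17 had a mean of at least 1 FPKM over the 9 libraries (11 of 26 integrins and 6 of 12 laminins) and entered the tests, and 21 stayed below it, 4 of them (ITGAD, ITGAM, ITGB6 and LAMA2) at 0 in all libraries. In the control, the alpha subunits were led by ITGA5, the fibronectin receptor subunit, at 52.2 ± 0.520 FPKM (SD, n = 3), followed by ITGA4 at 28.6 ± 1.82, ITGA6 at 16.2 ± 0.630, ITGAV at 10.2 ± 0.332, ITGA11 at 8.17 ± 0.713 and ITGA9 at 6.93 ± 0.441 FPKM. ITGAE (5.71 ± 1.58), ITGA3 (5.21 ± 0.494) and ITGA2 (3.91 ± 0.0510 FPKM) completed the list. The ranges of ITGAE and ITGA3 overlapped, as did those of ITGAE with ITGA9 and ITGA11, so that the order among these is not fixed by these libraries. Among beta subunits ITGB5, the partner of ITGAV, was at 98.0 ± 3.86 FPKM and ITGB1 at 62.0 ± 5.66 FPKM, while the other 6 had a mean below 1 FPKM.

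**Figure D1:**
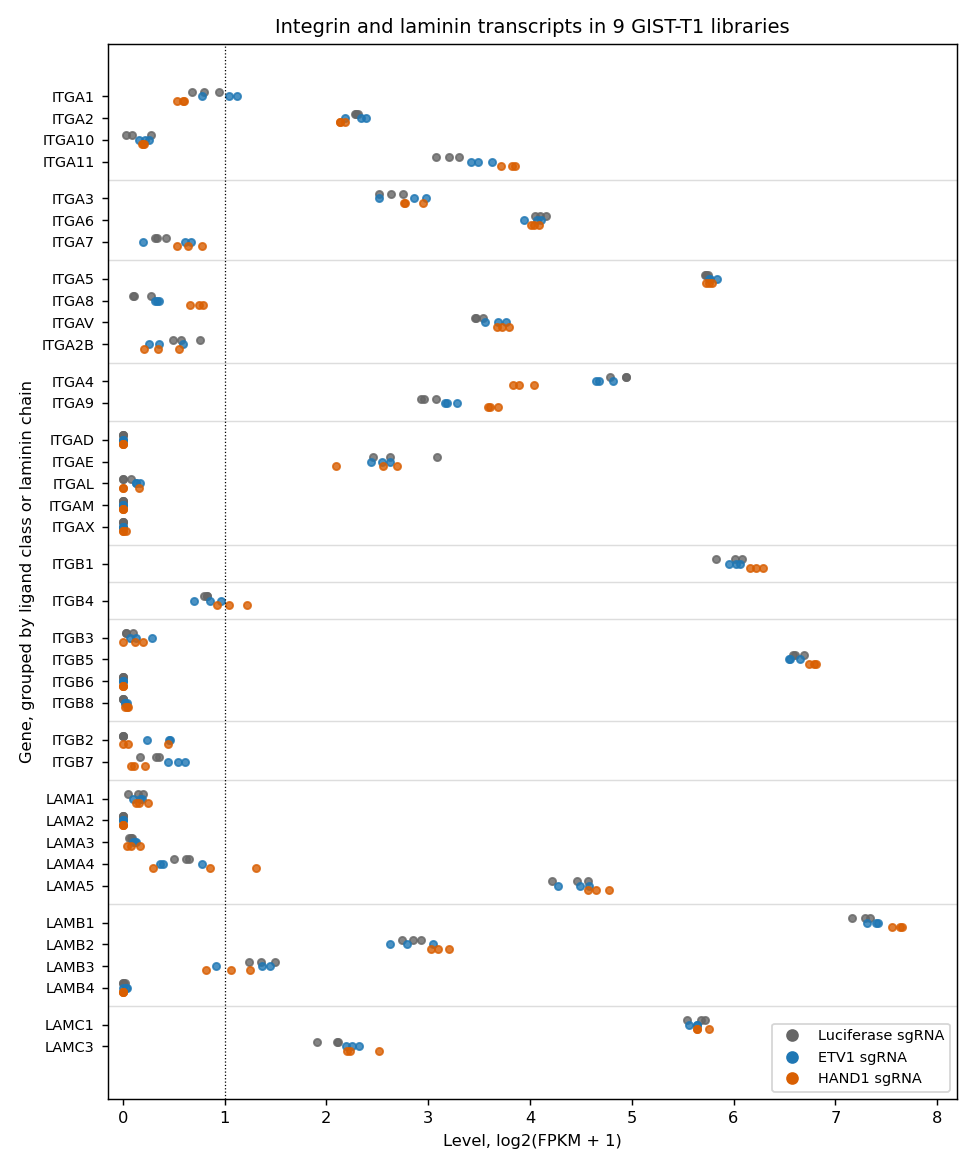
Level of the genes (1 laminin chain is not shown), as log2(FPKM + 1), in the 3 libraries of each group (points), ordered by ligand class or laminin chain; the dotted line is at 1 FPKM. A few genes of each class carry nearly all of its signal. HAND1 sgRNA libraries lie apart from the control in ITGA4, ITGA9, ITGA11 and LAMB1, which were called. They also do so in genes that were not called, among them ITGAV, ITGB1 and ITGB5, and such separation was not counted over all genes.

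The laminin signal came almost wholly from 1 gene of each chain type. LAMA5 made up 96.8 ± 0.959% of the summed laminin alpha FPKM in the control (SD, n = 3), LAMB1 95.2 ± 0.274% of the beta and LAMC1 94.0 ± 0.245% of the gamma signal. LAMB1 was at 153 ± 9.50 FPKM, LAMC1 at 49.2 ± 3.23 FPKM and LAMA5 at 20.5 ± 2.61 FPKM, so the transcript of the beta chain stood above that of its partners. LAMB2 (6.19 ± 0.464 FPKM), LAMC3 (3.12 ± 0.326 FPKM) and LAMB3 (1.58 ± 0.229 FPKM) were lower. Over all 9 libraries, the remaining 6 chains, among them LAMA2 of muscle and LAMA3 of epithelia, had a mean of at most 0.594 FPKM (LAMA4). The libraries do not keep strand. On the opposite strand, exons of DLD (mean 75.8 FPKM) overlap LAMB1 and exons of ADRM1 (351 FPKM) overlap LAMA5. The part of reads from DLD and ADRM1 in these levels and shares was not tested.

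With HAND1 sgRNA, 4 of the 17 tested genes were called changed. ITGA4 fell, and ITGA9, the collagen receptor subunit ITGA11 and the laminin chain LAMB1 rose. The related subunits ITGA4 and ITGA9 thus moved in opposite directions. The differences were tested with limma on the scale log2(FPKM + 1), and a gene was called changed at a Benjamini-Hochberg adjusted p under 0.05 over all 11348 genes tested. Over all of those, 6.6% were called in this comparison, 3.67% higher and 2.93% lower. An unadjusted limma p under 0.05 was found for 10 of the 17 genes, against 20.3% of all genes tested. The median difference was 0.15 (log2) over the 11 tested integrins and 0.26 over the 6 tested laminins, against -0.01 over all genes tested. For the 17 genes, Luciferase sgRNA replicate 3 lay at a median of -0.15 (log2) from the mean of replicates 1 and 2. Over all genes tested that median was 0.01, so this control library adds to the medians of the list. These values describe the list and were not tested as such.

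ITGA4, a receptor subunit for fibronectin and VCAM1, was at 29.7, 29.7 and 26.5 FPKM in Luciferase sgRNA replicates 1 to 3, at 27.2, 24.7 and 24.1 FPKM in the ETV1 sgRNA libraries and at 13.3, 13.8 and 15.4 FPKM in the HAND1 sgRNA libraries. All 3 HAND1 sgRNA libraries lay below all others, and the mean fell by 50.5% from the control. In limma ITGA4 fell by 0.97 (log2, SE 0.075, 95% interval -1.13 to -0.80, adjusted p = 4.54e-05). The call held under each of 19 alternative settings, with log2 differences between -1.02 and -0.81.

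ITGA9, a receptor subunit for tenascin C and osteopontin, was at 7.43, 6.60 and 6.75 FPKM in the control libraries, 8.75, 8.10 and 7.97 FPKM with ETV1 sgRNA and 11.9, 11.1 and 11.2 FPKM with HAND1 sgRNA. The 3 groups did not overlap. The rise over the control with HAND1 sgRNA was 64.3% in mean FPKM and 0.64 on the log2 scale (SE 0.071, 95% interval 0.49 to 0.80, limma adjusted p = 4.45e-04). The ratio of ITGA4 to ITGA9 was 4.14 ± 0.309 in the control, 3.06 ± 0.0454 with ETV1 sgRNA and 1.25 ± 0.128 with HAND1 sgRNA (SD, n = 3).

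ITGA11, a collagen receptor subunit of fibroblasts and other mesenchymal cells, was at 8.88, 8.19 and 7.45 FPKM in the control libraries, 9.72, 11.4 and 10.3 FPKM with ETV1 sgRNA and 13.2, 12.1 and 13.4 FPKM with HAND1 sgRNA. Again the 3 groups did not overlap, and the HAND1 sgRNA libraries were highest. The rise with HAND1 sgRNA was 58.0% in mean FPKM and 0.60 on the log2 scale (SE 0.083, 95% interval 0.42 to 0.79, limma adjusted p = 0.00181). The other tested collagen receptor subunit, ITGA2, was at 3.97, 3.87 and 3.90 FPKM in the control and 3.39, 3.39 and 3.52 FPKM with HAND1 sgRNA (log2 -0.15, 95% interval -0.34 to 0.04, adjusted p = 0.366) and was not called.

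LAMB1, the most abundant laminin chain transcript, was at 156, 161 and 142 FPKM in the control libraries, 168, 171 and 158 FPKM with ETV1 sgRNA and 201, 188 and 198 FPKM with HAND1 sgRNA. The HAND1 sgRNA libraries lay above all others, while the ranges of the other groups overlapped. LAMB1 rose by 27.8% in mean FPKM and by 0.35 on the log2 scale (SE 0.061, 95% interval 0.22 to 0.49, limma adjusted p = 0.00626). Its usual gamma partner LAMC1 was at 51.7, 50.3 and 45.5 FPKM in the control and 53.1, 48.8 and 48.9 FPKM with HAND1 sgRNA (log2 0.03, 95% interval -0.10 to 0.17, adjusted p = 0.820). The ratio of LAMB1 to LAMC1 was 3.12 ± 0.0876 in the control, 3.44 ± 0.0451 with ETV1 sgRNA and 3.90 ± 0.139 with HAND1 sgRNA (SD, n = 3). LAMB1 shares exonic sequence with DLD, a gene on the opposite strand in GENCODE 29 (GRCh38), and the libraries do not keep strand. DLD was at 74.1 ± 3.09 FPKM with HAND1 sgRNA against 79.3 ± 1.57 FPKM in the control (log2 -0.10, limma adjusted p = 0.305, not called). ITGA9 likewise overlaps its antisense transcript ITGA9-AS1, for which no value was matched, and no exonic overlap was found for ITGA4 and ITGA11.

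**Figure D2:**
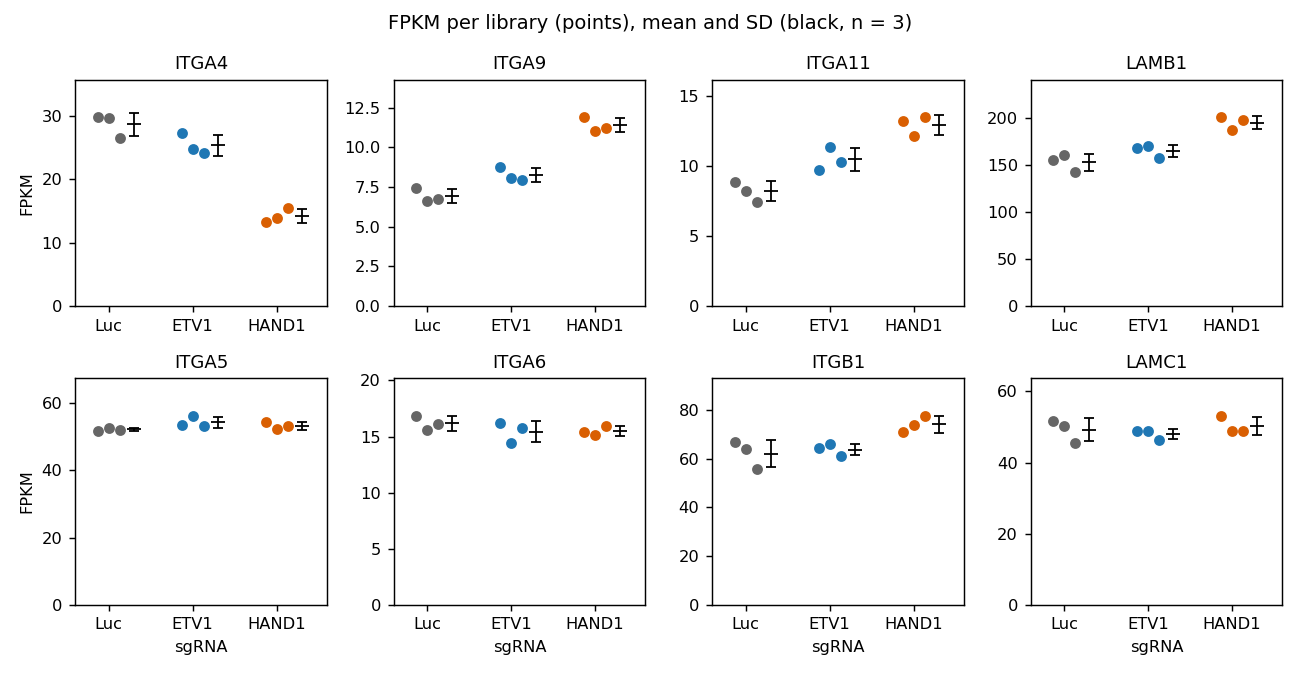
FPKM of 8 genes in each library (coloured points, replicates 1 to 3 from left to right) with the mean and SD of each group (black, n = 3); Luc stands for Luciferase sgRNA. ITGA4 is lower and ITGA9, ITGA11 and LAMB1 are higher with HAND1 sgRNA (top), whereas HAND1 sgRNA and control libraries overlap in ITGA5, ITGA6 and LAMC1 and not in ITGB1 (bottom).

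The 250 bases before the start sites of 3 of the 4 changed genes are shown because HAND1 belongs to a class of factors, bound to DNA with a partner, that recognise the E-box CANNTG. They come from RefSeq (GRCh38.p14), which is not the hg19 build of the expression table, and are written from 5′ to 3′ on the strand of the gene with every CANNTG in capitals. ITGA4 lies on the plus strand (chr2:181457136-181457385), ITGA11 on the minus strand (chr15:68432164-68432413) and LAMB1 on the minus strand (chr7:108003162-108003411).
ITGA4: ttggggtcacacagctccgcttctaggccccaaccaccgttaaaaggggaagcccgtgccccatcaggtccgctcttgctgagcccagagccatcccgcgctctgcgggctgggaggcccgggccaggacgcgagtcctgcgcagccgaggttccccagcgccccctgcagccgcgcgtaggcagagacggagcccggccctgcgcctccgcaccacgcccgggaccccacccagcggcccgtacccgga
ITGA11: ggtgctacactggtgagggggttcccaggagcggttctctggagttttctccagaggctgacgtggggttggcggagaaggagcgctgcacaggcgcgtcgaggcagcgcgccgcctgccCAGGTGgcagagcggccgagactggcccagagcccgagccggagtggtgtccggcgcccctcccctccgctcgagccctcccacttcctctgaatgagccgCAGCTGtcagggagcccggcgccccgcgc
LAMB1: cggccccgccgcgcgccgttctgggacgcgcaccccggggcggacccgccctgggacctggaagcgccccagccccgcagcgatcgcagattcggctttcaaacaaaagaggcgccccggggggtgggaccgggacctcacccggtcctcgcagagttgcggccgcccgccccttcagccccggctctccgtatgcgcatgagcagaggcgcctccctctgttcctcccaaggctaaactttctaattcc
The ITGA11 window held CANNTG at 2 places, CAGGTG starting 130 bases and CAGCTG starting 29 bases before the start site, and the windows of ITGA4, which fell, and LAMB1, which rose, held none. CANNTG, which reads the same on both strands, was present in 61.8% of 35116 windows of the same length and at 2 or more places in 28.3%. CCGGAA, a core of ETS factor sites searched on both strands and with no overlap with CANNTG, was in none of the 3 windows and in 14.5% of all. A match describes letters only, and its absence refers only to this window.

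Of the RGD and laminin receptor subunits, ITGA5, ITGAV, ITGA3 and ITGA6 had a mean of at least 1 FPKM, and these were not called with HAND1 sgRNA against the control. ITGA5 was at 51.7, 52.7 and 52.1 FPKM in the control and 54.4, 52.2 and 53.2 FPKM with HAND1 sgRNA (log2 0.03, 95% interval -0.07 to 0.13, limma adjusted p = 0.775). ITGA6, the main laminin receptor subunit, was at 16.8, 15.6 and 16.1 FPKM against 15.4, 15.1 and 16.0 FPKM (log2 -0.06, 95% interval -0.20 to 0.08, adjusted p = 0.674). With HAND1 sgRNA the means of ITGA4, ITGA11, ITGAV (12.3 ± 0.512 FPKM) and ITGA9 all lay between 11.4 and 14.2 FPKM. ITGAV was at 10.1, 10.6 and 10.01 FPKM in the control and 11.8, 12.2 and 12.8 FPKM with HAND1 sgRNA and was not called (log2 0.24, 95% interval 0.09 to 0.40, adjusted p = 0.0708). ITGA3 (log2 0.19, adjusted p = 0.421) and ITGAE (log2 -0.27, adjusted p = 0.448), whose exons overlap HASPIN on the opposite strand in GENCODE 29, were not called either.

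Neither tested beta subunit passed the test with HAND1 sgRNA. ITGB1 was at 66.6, 63.8 and 55.7 FPKM in the control, 64.2, 65.8 and 61.2 FPKM with ETV1 sgRNA and 70.8, 73.8 and 77.4 FPKM with HAND1 sgRNA (log2 0.25 against the control, 95% interval 0.10 to 0.41, limma adjusted p = 0.0610). ITGB5 was at 95.3, 96.3 and 102 FPKM in the control, 92.3, 93.0 and 99.4 FPKM with ETV1 sgRNA and 110.0, 106 and 111 FPKM with HAND1 sgRNA (log2 0.15, 95% interval 0.04 to 0.27, adjusted p = 0.123). In both genes the HAND1 sgRNA libraries lay above all others. Weighting the libraries brought ITGB1, ITGB5 and ITGAV past the threshold, for 7 called genes in place of 4. The same weighting raised the calls over all 11348 genes tested from 749 to 1312, so the gain was not particular to these genes. ITGB1 was also called without Luciferase sgRNA replicate 1. Over the 19 alternatives the adjusted p ran from 0.0254 to 0.206 for ITGB1, from 0.0254 to 0.312 for ITGB5 and from 0.0491 to 0.221 for ITGAV.

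Among the remaining laminins, LAMA5 was at 21.1, 22.7 and 17.6 FPKM in the control and 26.5, 24.1 and 22.8 FPKM with HAND1 sgRNA (log2 0.25, 95% interval 0.02 to 0.49, limma adjusted p = 0.208). Its exons overlap ADRM1, a gene on the opposite strand at a mean of 351 FPKM. The difference was 0.26 for LAMB2 (adjusted p = 0.207), 0.28 for LAMC3 (0.181) and -0.32 for LAMB3 (0.325), and none was called. Luciferase sgRNA replicate 3 gave the lowest control value for 10 of the 17 tested genes (58.8%), against 36.4% of all genes tested. Without it the difference was 0.15 for LAMA5 (not called), and LAMB1 (0.30), ITGA4 (-1.02), ITGA9 (0.63) and ITGA11 (0.54) were called.

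**Figure D3:**
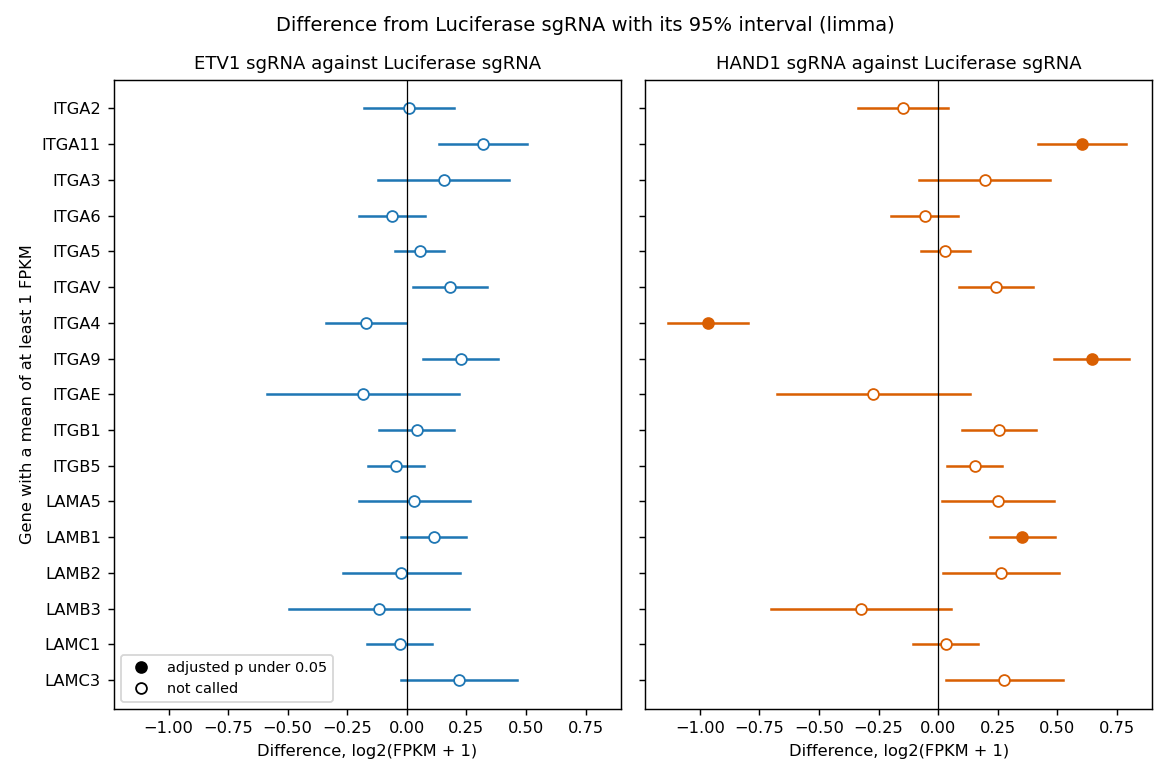
Difference from the control on the log2(FPKM + 1) scale, with its 95% interval (limma), for the 17 tested genes with ETV1 sgRNA (left) and HAND1 sgRNA (right); filled points have an adjusted p under 0.05. No gene is called on the left, and on the right ITGA4 (-0.97), ITGA9 (0.64), ITGA11 (0.60) and LAMB1 (0.35) are.

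The makeup of the alpha subunit transcripts is described by their shares. The 18 alpha genes summed to 139 ± 1.33 FPKM in the control, 142 ± 3.52 with ETV1 sgRNA and 136 ± 3.29 with HAND1 sgRNA (SD, n = 3). ITGA4 took 20.6 ± 1.17% of that sum in the control, 17.8 ± 0.735% with ETV1 sgRNA and 10.4 ± 0.598% with HAND1 sgRNA. The collagen-binding class took 9.31 ± 0.499%, 10.9 ± 1.00% and 12.5 ± 0.372% in the same order, the RGD-binding class 45.4 ± 0.702%, 46.7 ± 1.35% and 49.0 ± 0.982%, and the laminin-binding class 15.6 ± 0.679%, 15.3 ± 1.53% and 16.3 ± 0.294%. These shares are bound to sum to a whole, so a fall of ITGA4 raises the others, and they were not tested.

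**Figure D4:**
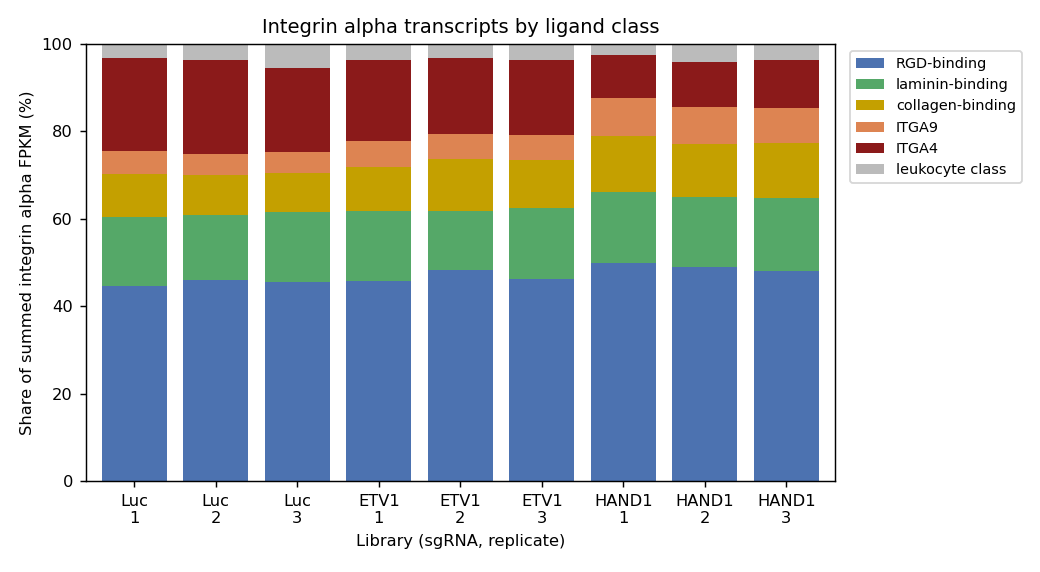
Share of the summed FPKM of the 18 integrin alpha genes, in percent, taken by each ligand class and by ITGA4 and ITGA9 in each library (bars). ITGA4 takes 9.85% to 11.05% in the HAND1 sgRNA libraries and 19.3% to 21.4% in the control.

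With ETV1 sgRNA, 0 of the 17 tested genes were called in limma against the control, where 0.203% of all genes tested were (0.141% higher and 0.0617% lower), and 4 had an unadjusted p under 0.05, as had 8.2% of all genes tested. These were ITGA11 (log2 0.32, 95% interval 0.14 to 0.50, adjusted p = 0.271), ITGA9 (0.23, 0.07 to 0.38, adjusted p = 0.408), ITGAV (0.18, 0.02 to 0.34, adjusted p = 0.528) and ITGA4 (-0.17, -0.34 to -0.0042, adjusted p = 0.593). With HAND1 sgRNA, set against the same control libraries, the differences were 0.60, 0.64, 0.24 and -0.97 in this order. The values of ITGA11, ITGA9 and ITGAV in all 3 ETV1 sgRNA libraries lay above all 3 control values, while those of ITGA4 overlapped the control. The same separation was seen in ITGA5 and in LAMC3 (log2 0.22, limma adjusted p = 0.666), and such separation was not counted over all genes. LAMB1 was at 0.11 (adjusted p = 0.696), ITGB1 at 0.04 (adjusted p = 0.931) and ITGA5 at 0.05 (adjusted p = 0.821), and the medians were 0.04 over the tested integrins and 0.00 over the laminins, against -0.01 over all genes tested.

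Set directly against each other, HAND1 sgRNA and ETV1 sgRNA differed in ITGA4 and ITGA9. The mean of ITGA4 fell by 44.0% from ETV1 sgRNA to HAND1 sgRNA (log2 -0.79, SE 0.075, limma adjusted p = 2.48e-04) and that of ITGA9 was 37.7% higher (0.42, SE 0.071, adjusted p = 0.00830). So 2 of 17 were called, where 4.05% of all genes tested were (2.01% higher and 2.04% lower). LAMB1 (0.24, adjusted p = 0.0591), ITGB5 (0.20, adjusted p = 0.0682), ITGA11 (0.28, adjusted p = 0.104) and ITGB1 (0.21, adjusted p = 0.152) were not called. Without Luciferase sgRNA replicate 3, which enters this comparison only through the shared estimate of the spread, 5 were called, the added ones being LAMB1, ITGB5 and ITGB1. In that fit the calls over all genes tested also rose, from 460 to 583. Over the 19 alternatives the adjusted p ran from 0.0153 to 0.201 for LAMB1, from 0.0249 to 0.222 for ITGB5 and from 0.0395 to 0.406 for ITGB1.

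Among the 21 genes below 1 FPKM, ITGA8, the nephronectin receptor subunit of mesenchyme, was at 0.214, 0.0700 and 0.0766 FPKM in the control, 0.261, 0.240 and 0.279 FPKM with ETV1 sgRNA and 0.678, 0.578 and 0.727 FPKM with HAND1 sgRNA. The HAND1 sgRNA libraries lay above all others. With no filter on low values ITGA8 was called with HAND1 sgRNA against the control (log2 0.57, adjusted p = 0.00181) and against ETV1 sgRNA (0.40, adjusted p = 0.0136). ITGB7, which pairs with ITGA4 in lymphocytes and whose exons overlap ZNF740 on the opposite strand, was at 0.357, 0.460 and 0.524 FPKM with ETV1 sgRNA and 0.162, 0.0769 and 0.0544 FPKM with HAND1 sgRNA, and in that fit differed between them (-0.40, adjusted p = 0.0202). At 0.256, 0.126 and 0.275 FPKM the control libraries lay between, overlapping the HAND1 sgRNA range. ITGB2, the common beta subunit of leukocytes, was listed at 0 in the 3 control libraries, at 0.374, 0.381 and 0.180 FPKM with ETV1 sgRNA and at 0, 0.0363 and 0.360 FPKM with HAND1 sgRNA, and no comparison was called (adjusted p of at least 0.432 with no filter). The 8 leukocyte markers, with CD2 at 0 and PTPRC at a mean of 0.0202 FPKM, summed to 0.877 to 1.36 FPKM in the control, 1.83 to 2.57 FPKM with ETV1 sgRNA and 0.201 to 2.07 FPKM with HAND1 sgRNA, and their part in the values of ITGB2 and ITGB7 was not tested. ITGA1, whose exons overlap PELO on the same strand in GENCODE 29, was at 0.606 to 0.929 FPKM in the control and 0.445 to 0.515 FPKM with HAND1 sgRNA and was not called (adjusted p = 0.311 with no filter). ITGB4, the partner of ITGA6 in epithelial hemidesmosomes, had a mean of 0.883 FPKM over all libraries. ITGB4 was at 0.760 ± 0.0215 FPKM in the control and 1.10 ± 0.220 FPKM with HAND1 sgRNA (SD, n = 3). In limma with no filter ITGB4 was not called (log2 0.25, adjusted p = 0.246). The leukocyte alpha genes other than ITGAE stayed at or below 0.121 FPKM in every library. The platelet subunits ITGA2B and ITGB3 were at most at 0.687 and 0.218 FPKM.

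The partners of integrins inside the cell and in the membrane were taken from a list of 57 symbols, 48 of them tested. With HAND1 sgRNA 8 of 48 rose and 0 fell in limma, against 3.67% and 2.93% of all genes tested, and the median difference was 0.06. The matrix co-receptor syndecan 1, SDC1, was at 29.9 ± 2.23 FPKM in the control and 46.2 ± 2.37 FPKM with HAND1 sgRNA (SD, n = 3), a rise of 0.61 on the log2 scale (limma adjusted p = 3.25e-04). The focal adhesion protein zyxin, ZYX, went from 155 ± 1.32 to 208 ± 6.34 FPKM (0.42, adjusted p = 7.41e-04). CD82, a tetraspanin that associates with integrins, rose by 0.99 (adjusted p = 0.00394) and NEDD9, a scaffold of focal adhesion kinase signalling, by 0.66 (adjusted p = 0.00618). The other 4, named after their values were seen, were the kindlin FERMT2, the paxillin relative TGFB1I1 and the laminin receptors DAG1 and BCAM (0.25 and 0.36, adjusted p = 0.0272 and 0.0387). The count was 5 when Luciferase sgRNA replicate 1 or HAND1 sgRNA replicate 2 was left out and with only the compared groups in the fit, where in each case BCAM, DAG1 and TGFB1I1 were not called.

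With ETV1 sgRNA 0 of these 48 genes were called in limma, against 0.203% of all genes tested, and 6 had an unadjusted p under 0.05, against 8.2% of all. The smallest adjusted p values were those of ZYX (log2 0.30, adjusted p = 0.0553) and ACTN1, an alpha-actinin (0.16, adjusted p = 0.396). ZYX was called without Luciferase sgRNA replicate 3, as the only gene of the list. Between HAND1 and ETV1 sgRNA SDC1 (0.58, adjusted p = 5.94e-04), RSU1, a partner of the integrin-linked kinase complex (0.25, adjusted p = 0.0386), and CD82 (0.65, adjusted p = 0.0485) were higher with HAND1 sgRNA, which makes 3 of 48, where 2.01% of all genes tested were higher. The calls of RSU1 and CD82 were both lost, leaving 1, when any of these was left out: ETV1 sgRNA replicate 1 or 2, HAND1 sgRNA replicate 1, 2 or 3, Luciferase sgRNA replicate 2 or the intensity trend.

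Matrix ligands other than laminins were taken from a list of 39 symbols, 23 of them tested, and like the other lists it was drawn up with earlier results known. With HAND1 sgRNA 11 of 23 rose and 2 fell in limma, where 3.67% of all genes tested rose and 2.93% fell. The median difference was 0.28. Basement membrane genes gave 6 of 11 higher and 0 lower, against 3.67% and 2.93% of all genes tested. Among the 6 was NTN4, at 0.895 FPKM in the control, 0.620 with ETV1 sgRNA and 2.04 with HAND1 sgRNA. NTN4 thus passed the filter of 1 FPKM only through the HAND1 sgRNA libraries. For COL15A1 9.51 ± 0.839 FPKM in the control stood against 18.9 ± 0.787 FPKM with HAND1 sgRNA (SD, n = 3), a rise of 0.92 on the log2 scale (limma adjusted p = 9.77e-05). COL4A1, a chain of the collagen network of basement membranes, rose by 0.59 (adjusted p = 6.77e-04). CTGF, a matricellular integrin ligand, rose by 1.21 (adjusted p = 2.12e-04), and FBN1, fibrillin with an RGD site, fell by 0.90 (adjusted p = 1.22e-04). FN1, the fibronectin bound by the subunits of both ITGA4 and ITGA5 and named for that role, was at 37.6 ± 1.65 against 32.1 ± 1.90 FPKM (0.23, adjusted p = 0.0587) and was not called. TNC, the tenascin bound by the subunit of ITGA9 and also named for its role, rose by 0.59 (adjusted p = 0.00580). Its level was low, 1.86 FPKM in the control and 3.31 FPKM with HAND1 sgRNA, and it was not tested with a minimum of 5 FPKM. EMILIN1, named as the tested ligand with the highest level, was at 771 FPKM in the control and 767 FPKM with HAND1 sgRNA. In limma EMILIN1 was not called (log2 0.006, adjusted p = 0.983). The count of 13 was 8 without HAND1 sgRNA replicate 3, where AGRN, CYR61, NID2, NPNT and NTN4 were not called.

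Of the 23 ligands 0 were called in limma with ETV1 sgRNA (0.203% of all genes tested) and 9 had an unadjusted p under 0.05 (8.2% of all). The smallest adjusted p values were those of COL15A1 (log2 -0.44, adjusted p = 0.0819) and CYR61, a matricellular integrin ligand (0.47, adjusted p = 0.124). Between HAND1 and ETV1 sgRNA 8 were higher and 1 lower, where 2.01% of all genes tested were higher and 2.04% lower. The 8 include NTN4, which passed the filter only through the HAND1 sgRNA libraries. The smallest adjusted p values were those of COL15A1 (1.37, adjusted p = 7.28e-06), FBN1 (-0.71, adjusted p = 8.83e-04), NPNT, the nephronectin bound by the subunit of ITGA8 (0.76, adjusted p = 0.00427), and COL4A2 (0.41, adjusted p = 0.00439).

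**Figure D5:**
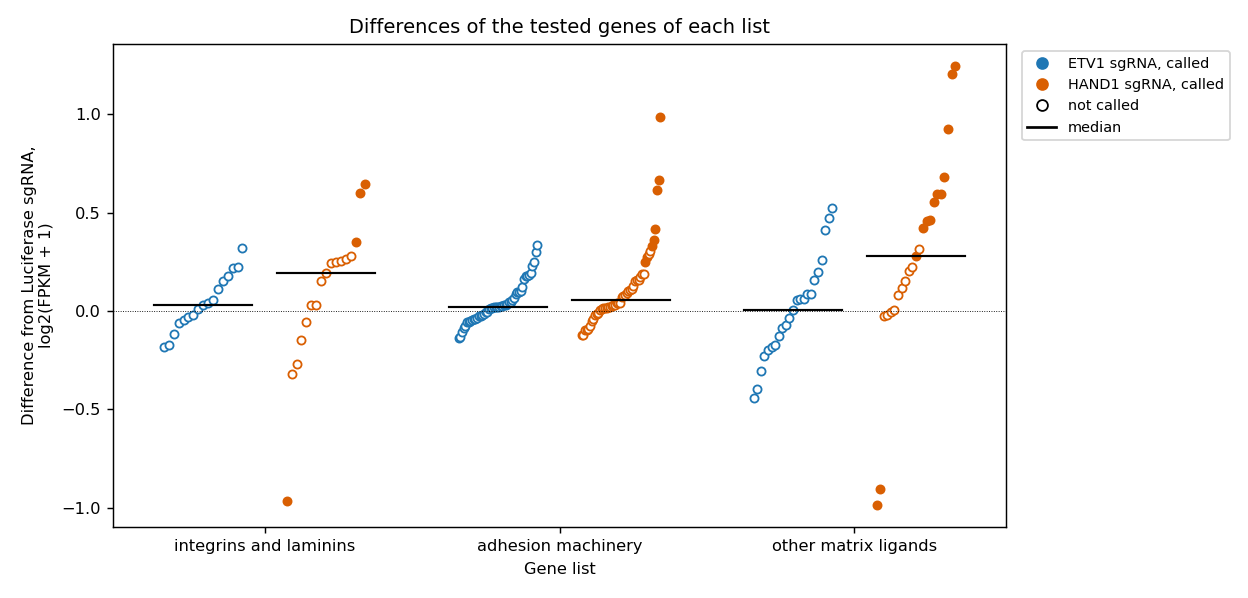
Difference from the control on the log2(FPKM + 1) scale for each tested gene (points, in rising order within each column) of the 17 integrins and laminins, the 48 adhesion machinery genes and the 23 other matrix ligands; filled points have a limma adjusted p under 0.05 and black bars are medians. With HAND1 sgRNA the medians are 0.19, 0.06 and 0.28, and with ETV1 sgRNA no gene is called.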

How the data were processed

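PolyA RNA of GIST-T1 was sequenced on a NovaSeq6000 from non-stranded NEBNext Ultra II libraries, per the labels' protocols. STAR, Cufflinks and hg19 are named per the submitters' processing notes; versions, the annotation and the scaling of libraries to each other were not given in the sources used here. Per gene symbol, the authors deposited 1 FPKM value for each library. No counts are given, so depth was estimated only relative to the first control library, from the most frequent ratio of low values.

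Values below 1e-06 were read as 0. The 11348 genes whose mean over the 9 libraries reached 1 FPKM were fitted on log2(FPKM + 1), a pseudocount of 1, with limma 3.58.1 in R 4.3.3, with all 9 libraries, the group as the only term and an intensity trend. This scale understates the change of low genes. Tests were two-sided, with Benjamini-Hochberg adjustment over all genes tested and a threshold of 0.05. The script was tested on simulated data. Intervals (95%) and SE cover the spread between libraries. Alternatives were other pseudocounts, filters, scalings, variance models, library weights, fewer groups, a replicate block and each library left out.

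Members and lists were chosen with earlier results of these data known. All 17 tested members are named, and 1 of the genes below 1 FPKM is not reported here; from each other list the rule takes up to 4 called genes with the smallest adjusted p in a comparison, or up to 2 where none is called. Of 57 adhesion machinery symbols 55 were in the table. Promoter windows were found for 26 of 38 members.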

Additional observations from a re-analysis of the deposited data

How the results depend on the processing

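In the comparison of HAND1 sgRNA with the control, ITGA4, ITGA9, ITGA11 and LAMB1 were called under all 19 alternatives; between HAND1 and ETV1 sgRNA the same held for ITGA4 and ITGA9. No called integrin or laminin changed sign. Leaving out each library gave 4 to 5 called integrins and laminins for HAND1 sgRNA, 0 to 0 for ETV1 sgRNA and 2 to 5 between the sgRNAs. Over all genes tested it gave 433 to 730, 11 to 26 and 271 to 583 calls, in the same order. For the adhesion machinery it gave 5 to 9, 0 to 1 and 1 to 4, and for the other matrix ligands 8 to 13, 0 to 0 and 8 to 10, in the same order. Integrins and laminins called between the sgRNAs numbered 4 with no filter and 5 with library weights, which gave 7 against the control for HAND1 sgRNA. Over all genes tested, library weights raised the calls from 460 to 625 between the sgRNAs. Against the control they raised them from 749 to 1312 for HAND1 sgRNA and from 23 to 45 for ETV1 sgRNA. For ETV1 sgRNA, 1 adhesion machinery gene (ZYX) was called with a minimum of 5 FPKM, median centring or library weights, and 2 matrix ligands (COL15A1 and CTGF) with library weights. Called adhesion machinery genes numbered 5 for HAND1 sgRNA with only the compared groups in the fit, and between the sgRNAs 1 without the intensity trend and 6 with library weights. With a minimum of 5 FPKM, 7 matrix ligands were called for HAND1 sgRNA and 5 between the sgRNAs, where the 6 and 4 genes lost lay below that minimum. Same-numbered libraries did not all deviate together (correlations between -0.15 and 0.14), and not every library correlated best with its own number; with the replicate block the called integrins and laminins numbered 4, 0 and 2 as without it, the calls over all genes 632, 16 and 364 (749, 23 and 460 without it), and the adhesion machinery genes called between the sgRNAs fell to 1. For the shifts other than those from the minimum of 5 FPKM, the cause was not tested. Relative depths of 0.636 to 1 limit genes below 1 FPKM, where the fits with and without the filter differed.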
